A study of Homo sapiens with 6 samples.

Results

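The genes described here encode the Golgi enzymes that finish glycans on secreted and membrane proteins, together with the SLC35A family, which includes carriers of sugar nucleotides. They were picked out by a pattern of symbols, which uses no measured value but was proposed with results of these data known, and comprised the alpha-mannosidases and endomannosidase, the families MGAT, B4GALT, B3GALT, B3GNT, FUT, ST3GAL, ST6GAL, ST6GALNAC, ST8SIA, GALNT and GCNT, C1GALT1, and the transporters SLC35A1 to SLC35A5. The count table held 78 such genes among 21503, and 77 of them passed the filter on low counts. The gene left out by the filter was B3GNT7, with a mean of 0.0904 TPM. A further 17 genes of these families had values in the TPM table alone, none above 1.14 TPM in any library, among them ST8SIA2, a polysialyltransferase, and FUT7, the fucosyltransferase of leukocyte selectin ligands.

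RNA came from UMUC3 cells, an established human bladder carcinoma line, placed orthotopically in the bladders of C57 nude mice, which lack mature T cells but keep other leukocytes, and left there for 14 days. Of the 6 bulk RNA-seq libraries, 3 were from control cells and 3 from cells with knockdown of GANAB, and no other treatment was labelled. GANAB encodes the catalytic subunit of glucosidase II, which trims the inner glucoses of N-glycans in the endoplasmic reticulum before they reach the Golgi. The labels give neither the means of knockdown nor the number of clones. They do not say whether each library had its own mouse, so the p-values reflect the spread among these samples alone, and that spread may be technical.

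N-glycans leave the endoplasmic reticulum as high-mannose structures. In the Golgi, class I alpha-mannosidases (MAN1A1, MAN1A2, MAN1C1) trim mannose, MGAT1 adds the first branch, class II mannosidases (MAN2A1, MAN2A2) remove further mannose, and the other MGAT enzymes set how many antennae the glycan carries. Galactose, fucose and sialic acid then complete the antennae. A separate route, started by the GALNT enzymes, builds mucin-type O-glycans on serine and threonine. The endomannosidase MANEA can cut a glucose-capped mannose off an N-glycan that glucosidase II has not trimmed, which gives the Golgi a bypass of the step that GANAB serves.

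Libraries differed in depth and in spread. Estimated counts totalled 11737837 to 36381218 in the control and 36619291 to 40039584 in the knockdown libraries, and the 78 genes took 26341 to 81878 of these per library. Mitochondrial ribosomal RNA made up 29.2% of the counts of control library 1, against 0.928% to 2.43% in the other 5, and since TPM sum to a fixed total, those of other genes are lower there. TMM-normalized CPM, counts scaled to depth and to a common composition, are therefore used for comparisons between libraries, and TPM, which are scaled for length, for comparisons between genes. The biological coefficient of variation was 52.3% among control and 10.7% among knockdown libraries. GANAB itself stood at 685, 825 and 661 CPM over controls 1, 2 and 3 and at 231, 238 and 231 CPM over knockdowns 1, 2 and 3 (edgeR adjusted p = 0.00239).

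Genes that mark other cells of a bladder or tumour were read under their human symbols, and no source used here states whether mouse reads were removed. Of 9 tested smooth muscle genes 4 rose (ACTA2, MYH11, TAGLN and CNN1) and none fell, with a summed level of 227 to 522 CPM over controls and 776 to 812 CPM in knockdown libraries. Of 8 fibroblast genes 1, PDGFRB, rose, and the summed level was 59.7 to 245 CPM against 206 to 208 CPM. By edgeR no marker passed among 8 endothelial genes (74.1 to 295 against 110.4 to 113 CPM) or 6 leukocyte and macrophage genes (88.97 to 295 against 76.4 to 77.7 CPM), with 2 and 1 genes at an unadjusted p under 0.05 and 1 called in each list by DESeq2. The pan-leukocyte gene PTPRC was at 1.25, 0 and 0 CPM over controls 1, 2 and 3 and at 0.471, 0.968 and 0.966 CPM over knockdowns 1, 2 and 3. CD68, of macrophages, was at 96.0, 255 and 66.8 CPM against 52.3, 51.6 and 51.6 CPM, lower without overlap (edgeR adjusted p = 0.0958). CSF1R, also of macrophages, was low and went the other way without overlap. It read 0.331, 0.105 and 0 CPM over controls and 0.670, 0.917 and 0.471 CPM over knockdowns (edgeR adjusted p = 0.235). The median log2 fold change of the 6 leukocyte and macrophage genes was 0.088. Of endothelial genes VWF and PECAM1 stayed under 1 CPM, and ENG was at 49.96 to 181 CPM. CDH5 was at 0.405, 0 and 0 CPM over controls and at 2.46, 3.13 and 2.92 CPM over knockdowns, higher without overlap (edgeR adjusted p = 0.0566). TIE1 went the other way, at 37.3, 112 and 20.2 CPM over controls and at 20.0, 22.3 and 22.9 CPM over knockdowns. Its groups overlapped (log2 fold change -1.38, edgeR adjusted p = 0.166). Of urothelial markers 2 of 9, UPK1A and FOXA1, rose (summed level 16.5 to 20.9 against 29.1 to 33.5 CPM), and the epithelial cadherin gene CDH1 did not exceed 0.552 CPM in any library, while VIM, of the carcinoma line list, rose and stood at 2193 to 5656 CPM over the 6 libraries, and KRT18 was at 131 to 248 CPM. The part of these cells in the results below was not tested, and in bulk RNA fewer cells of a type and less RNA per cell cannot be told apart.

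Across the whole set, 5 of 77 tested genes fell in the knockdown libraries and 1 rose (edgeR quasi-likelihood test, p adjusted over all 19430 genes tested). The genes that fell were B4GALT2, GCNT1, B3GNT5, GALNT16 and MGAT4A, and the gene that rose was MAN1C1. These 6 genes were 7.79% of the set, close to the 8.31% called among all genes. By direction, 6.49% of the set fell against 3.72% of all genes, and 1.30% rose against 4.59%. The median log2 fold change was -0.16 in the set and 0.033 over all genes, and 45 of the 77 genes had a negative value (58.4%, against 47.9% of all genes). Control and knockdown values did not overlap for 28 genes (36.4%, against 37.6% of all genes), 17 of them lower and 11 higher in the knockdown (against 15.7% lower and 21.9% higher of all genes). All 6 calls were lost by edgeR when any one of the knockdown libraries was left out, where 12 to 14 genes of the set had an unadjusted p under 0.05 and 0.311% to 0.575% of all genes were called. Without control library 2, 27 of 78 genes passed (34.6%, against 27.7% of all genes), with 19 lower and 8 higher. Over 19 alternatives, which included each left-out library, the call was lost in 4 for GCNT1, 7 for B4GALT2, 7 for B3GNT5, 8 for GALNT16, 10 for MGAT4A and 13 of 18 for MAN1C1. On log2(TPM + 1) with genes of at least 1 TPM, the median was 0.23 over all genes and 0.074 in the set. Without that filter the medians were 0 and 0.076. The sign of the set's median therefore changed between fits. Its place below all genes was lost only in the unfiltered TPM fit, which took in 60233 genes against 19430 in the edgeR fit.

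**Figure D1:**
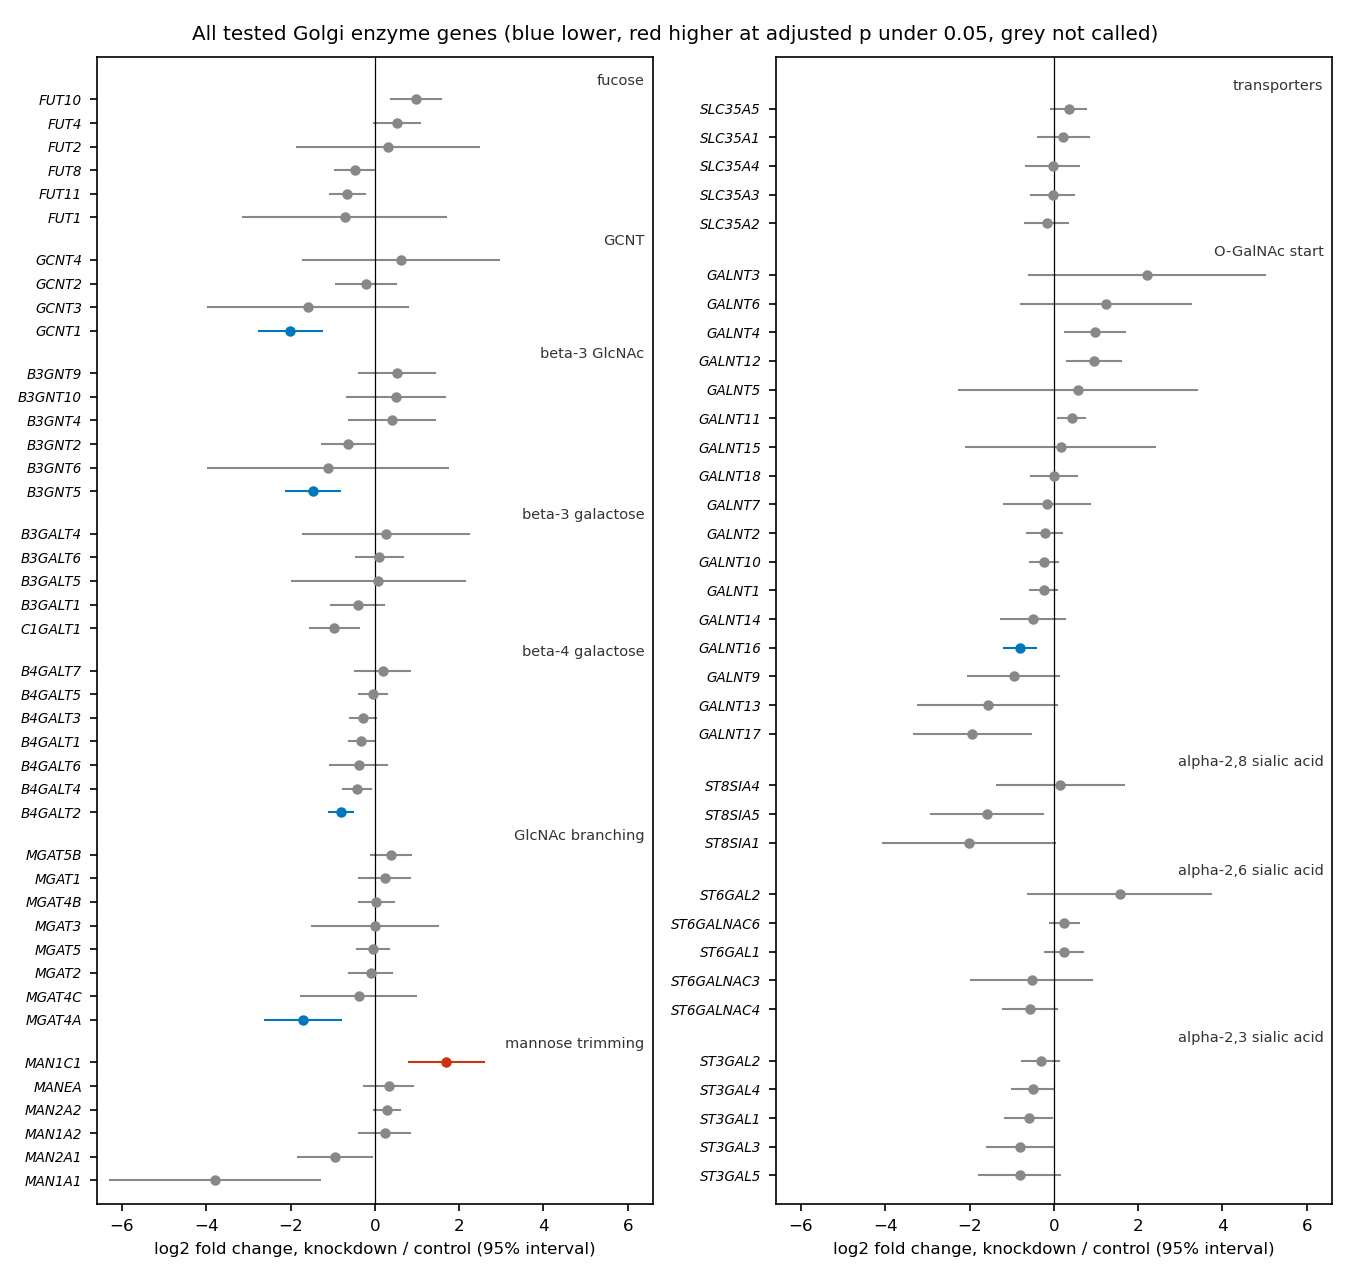
Log2 fold change of knockdown over control (x axis) with its 95% interval for each of the 77 tested genes, grouped by enzyme family (y axis); blue marks the 5 genes called lower, red the 1 called higher and grey the rest. Most points lie near 0, and the widest intervals belong to MAN1A1 and to genes of low count such as B3GNT6, GALNT5 and GALNT3.

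In mannose trimming, MAN1C1 rose by edgeR and none of the other 5 genes passed that test. DESeq2 called MAN1C1 and MAN1A1, limma-voom called none of the 6, and limma-voom with sample quality weights called MAN1A1 and MAN2A1. MAN1C1 (ENSG00000117643, chromosome 1, 25617468 to 25786207, plus strand, GRCh38), a class I mannosidase, stood at 1.55, 1.63 and 1.07 CPM over controls 1, 2 and 3 and at 3.33, 4.63 and 5.94 CPM over knockdowns 1, 2 and 3. The groups did not overlap, and the rise was 1.70 on the log2 scale (SE 0.384, 3.24-fold, edgeR adjusted p = 0.0388), from 1.41 ± 0.302 to 4.63 ± 1.31 CPM (SD, n = 3). It rested on few counts, 13 in control library 3 and at most 252 in a knockdown library. MAN1C1 remained called without control library 2 but not without control library 1 or 3, nor with any 1 knockdown library left out (adjusted p by edgeR = 0.0153 to 0.227 over the 6 fits).

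MAN1A1, the main class I mannosidase in 2 of the 3 control libraries, had the most negative log2 fold change of the set and did not pass by edgeR. It stood at 120.3, 3.00 and 113 CPM over controls 1, 2 and 3 and at 6.15, 4.63 and 6.17 CPM over knockdowns 1, 2 and 3. Control library 2 was below every knockdown library, while controls 1 and 3 were far above them, so the groups overlapped (log2 fold change -3.80, 95% interval -6.29 to -1.30, edgeR adjusted p = 0.0701). Without control library 2 the value was -4.36 with an adjusted p of 1.47e-05. By DESeq2 the adjusted p was 0.0117, and it was 0.291 by limma-voom and 7.34e-04 with sample quality weights. Its paralog MAN1A2 was steadier, at 52.1, 25.4 and 49.1 CPM over controls and 47.9, 51.95 and 49.2 CPM over knockdowns 1, 2 and 3. As a share of the summed TPM of the 3 class I genes, MAN1A1 held 67.97, 14.1 and 69.3% over controls 1, 2 and 3 and 10.5, 8.18 and 9.18% over knockdowns 1, 2 and 3. By CPM the shares of MAN1A1 were 69.2, 9.97 and 69.2% over controls 1, 2 and 3 and 10.7, 7.57 and 10.1% over knockdowns 1, 2 and 3, so the groups were apart by TPM and overlapped by CPM. By TPM, MAN1A2 held the largest share in control library 2 and in all knockdown libraries.

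Of the class II pair, MAN2A1 shared the low control library 2 of MAN1A1 and MAN2A2 did not. MAN2A1, the alpha-mannosidase II that opens the way to complex glycans, was at 73.5, 23.02 and 61.1 CPM over controls 1, 2 and 3 and at 27.1, 27.4 and 27.7 CPM over knockdowns 1, 2 and 3 (log2 fold change -0.94, 95% interval -1.82 to -0.061, edgeR adjusted p = 0.166). Control library 2 again lay below the knockdown values and the other controls above them, and without it the difference passed (-1.30, adjusted p = 2.23e-04). Sample quality weights in limma-voom also called it (-1.20, adjusted p = 9.46e-04). MAN2A2, its paralog, was the most abundant gene of the group at a mean of 28.7 TPM, and its knockdown values of 78.3, 76.2 and 72.7 CPM all exceeded the controls at 64.1, 67.02 and 54.2 CPM without passing (log2 fold change 0.29, edgeR adjusted p = 0.218). For the endomannosidase gene MANEA, 15.2, 8.73 and 12.1 CPM over controls and 14.6, 17.01 and 13.6 CPM over knockdowns 1, 2 and 3 overlapped. Its log2 fold change of 0.32 had a 95% interval of -0.25 to 0.90 (edgeR adjusted p = 0.457).

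Among the 8 genes of antenna branching, MGAT4A fell and the other 7 did not pass by edgeR, DESeq2 or limma-voom. With sample quality weights limma-voom called MGAT1 as well. MGAT4A (ENSG00000071073, chromosome 2, 98619106 to 98731126, minus strand) encodes an enzyme that adds a branch to the core alpha-1,3 mannose arm. It was at 16.8, 6.57 and 9.38 CPM over controls 1, 2 and 3 and at 2.90, 3.03 and 4.12 CPM over knockdowns 1, 2 and 3. Every knockdown value was below every control value, although the controls themselves spread 2.56-fold. MGAT4A fell by 1.71 on the log2 scale (SE 0.390, 3.27-fold, edgeR adjusted p = 0.0399), and with 1 library left out at a time it passed only without control library 2 (adjusted p = 0.00341 to 0.197; log2 fold change -1.97 to -1.27 without a control).

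MGAT4B, which catalyses the same reaction, was the most abundant gene of the whole set at a mean of 124 TPM, against 1.56 TPM for MGAT4A. MGAT4B read 132, 200.5 and 147 CPM over controls and 163, 158 and 170.3 CPM over knockdowns 1, 2 and 3, and its log2 fold change was 0.035 (95% interval -0.38 to 0.45, edgeR adjusted p = 0.927). It held 97.4, 98.2 and 97.8% over controls 1, 2 and 3 and 99.5, 99.3 and 99.2% over knockdowns 1, 2 and 3 of the summed TPM of MGAT4A, MGAT4B and MGAT4C. MGAT4A held 2.11 ± 0.397% in control and 0.541 ± 0.196% in knockdown libraries (SD, n = 3). MGAT4B overlaps SQSTM1 on the opposite strand, so reads of the 2 genes may not be told apart if counting ignored strand, which the sources used here do not state.

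The gatekeeper and high-branching genes showed intervals around 0. MGAT1, without which no hybrid or complex N-glycan forms, was at 63.1, 109.8 and 53.7 CPM over controls and 84.0, 90.5 and 91.3 CPM over knockdowns 1, 2 and 3 (log2 fold change 0.23, 95% interval -0.38 to 0.84, edgeR adjusted p = 0.640). Its direction turned without control library 3 (-0.018), and without control library 2 it passed as higher (0.60, adjusted p = 0.00379), as it did in limma-voom with sample quality weights (0.50, adjusted p = 0.0333). MGAT2, of the second antenna, had a log2 fold change of -0.10 (95% interval -0.61 to 0.41). MGAT5 makes the branch that is most often extended by N-acetyllactosamine repeats and is tied to tumour cell growth and motility. It read 76.99, 68.3 and 53.005 CPM over controls and 62.7, 67.2 and 63.8 CPM over knockdowns 1, 2 and 3, a log2 fold change of -0.035 (95% interval -0.42 to 0.34, edgeR adjusted p = 0.921). Its brain-type paralog MGAT5B stood at 23.98, 15.6 and 22.96 CPM against 29.7, 28.1 and 23.98 CPM (edgeR adjusted p = 0.287). On the TPM scale it read 9.05, 9.72 and 11.7 TPM in control and 23.6, 22.1 and 19.2 TPM in knockdown libraries. There limma-trend on log2(TPM + 1) called MGAT5B higher (adjusted p = 0.0474). Its CPM ranges overlapped barely, with 23.985 CPM in control library 1 and 23.983 CPM in knockdown library 3. MGAT3, of the bisecting branch, was low at a mean of 0.953 TPM.

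**Figure D2:**
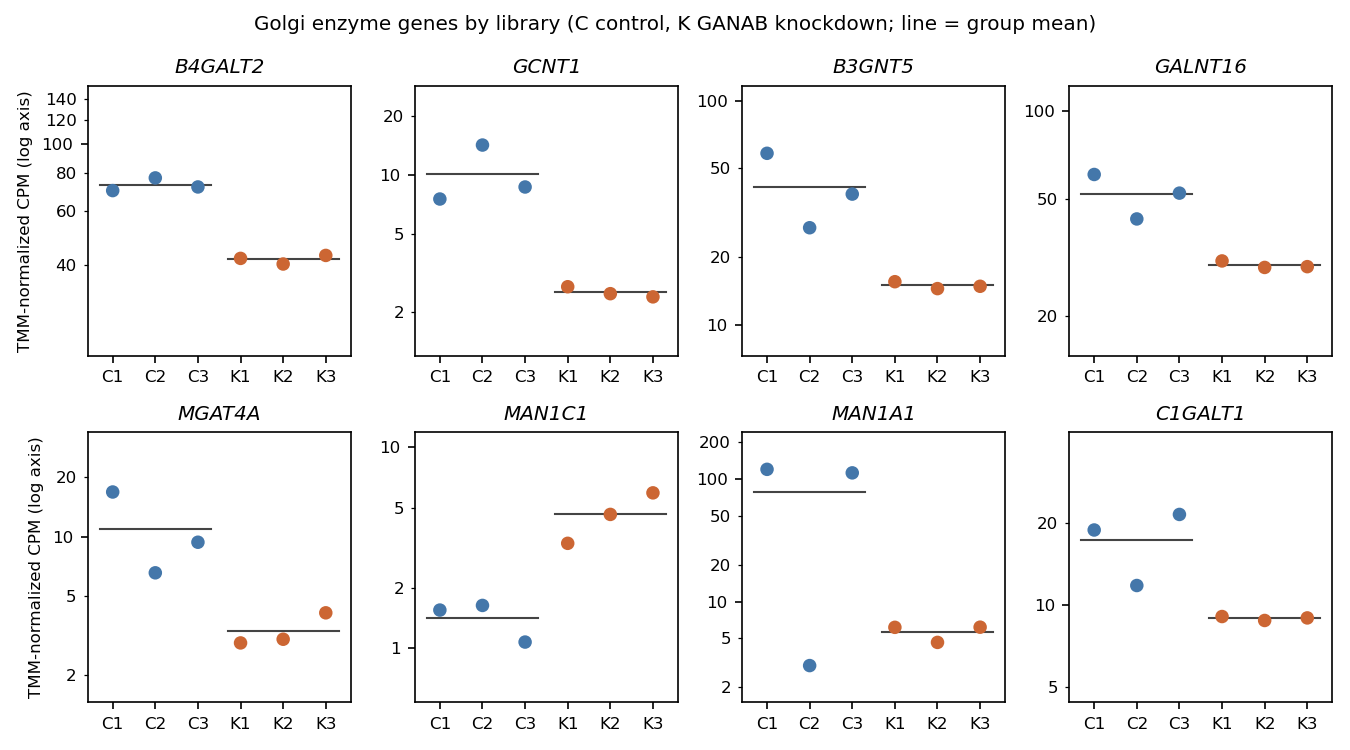
TMM-normalized CPM (y axis, log scale) of 8 genes in control libraries (C1 to C3, blue) and GANAB knockdown libraries (K1 to K3, orange), with a line at each group mean. The 6 called genes, B4GALT2, GCNT1, B3GNT5, GALNT16, MGAT4A and MAN1C1, show no overlap; MAN1A1 of control library 2 lies below the knockdown values; and C1GALT1 has no overlap but did not pass.

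Of the 7 beta-4 galactosyltransferase genes, B4GALT2 fell by edgeR and no other passed that test. DESeq2 called B4GALT1 and B4GALT4 lower as well, limma-voom called B4GALT2 alone, and sample quality weights added B4GALT1. B4GALT2 (ENSG00000117411, chromosome 1, 43978943 to 43991170, plus strand) adds galactose to antennae and overlaps no other annotated gene. Its level was 70.2, 77.3 and 72.2 CPM over controls 1, 2 and 3 and 42.1, 40.4 and 43.1 CPM over knockdowns 1, 2 and 3. Both groups were tight and lay well apart, and B4GALT2 fell by 0.81 on the log2 scale (SE 0.121, 1.75-fold, edgeR adjusted p = 0.0129), from 73.2 ± 3.64 to 41.8 ± 1.37 CPM (SD, n = 3). It passed without any one control library (adjusted p = 5.96e-04 to 0.0285) but not without any one knockdown library (0.111 to 0.115).

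The galactosyltransferases nearest to it did not pass by edgeR. B4GALT1, the main galactosyltransferase of most tissues, was at 147, 128 and 147 CPM over controls and 108, 117 and 113 CPM over knockdowns 1, 2 and 3 (log2 fold change -0.32, 95% interval -0.61 to -0.028, edgeR adjusted p = 0.157; 0.0481 by DESeq2 and 0.0277 with sample quality weights). B4GALT3 (-0.28) and B4GALT4 (-0.42) also had lower knockdown CPM without overlap (edgeR adjusted p = 0.225 and 0.116; 0.0467 by DESeq2 for B4GALT4), but on log2(TPM + 1) the value of B4GALT3 turned to 0.082. B4GALT2 held 36.3, 38.8 and 38.7% over controls 1, 2 and 3 and 29.1, 27.8 and 27.9% over knockdowns 1, 2 and 3 of the summed TPM of B4GALT1 to B4GALT4, and by CPM the shares were 24.3, 27.7 and 24.1% over controls 1, 2 and 3 and 20.3, 18.5 and 19.8% over knockdowns 1, 2 and 3. On either scale the groups did not overlap. B4GALT1 held 27.1 ± 1.46% of the summed TPM in control and 30.7 ± 1.87% in knockdown libraries (SD, n = 3), and B4GALT3 24.1 ± 0.961% and 30.8 ± 2.07%. The lactosylceramide synthase genes B4GALT5 (-0.049, 95% interval -0.39 to 0.29) and B4GALT6 (-0.38, -1.06 to 0.29) and the proteoglycan linker gene B4GALT7 (0.19, -0.46 to 0.84) had intervals that included 0.

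**Figure D3:**
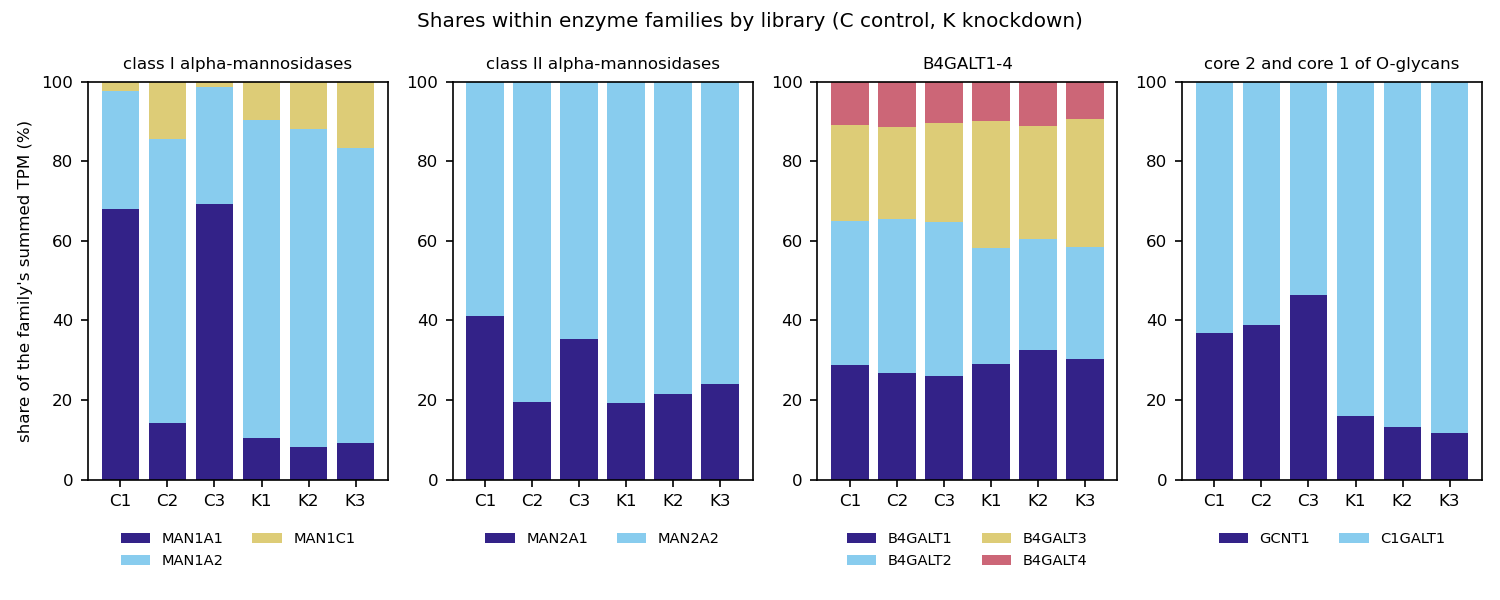
Share of the summed TPM of each family (y axis, %, from 0 to 100) held by each gene in each library (C control, K knockdown), for class I and class II alpha-mannosidases, B4GALT1 to B4GALT4, and the pair GCNT1 and C1GALT1. MAN1A1 holds most of its family only in control libraries 1 and 3, while the B4GALT2 and GCNT1 shares are lower in all 3 knockdown libraries than in all 3 controls.

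Mucin-type O-glycan genes included 2 of the 5 that fell. Of 17 GALNT genes, which add the first GalNAc, GALNT16 fell by edgeR and none rose in that test. DESeq2 also called GALNT12 and GALNT4 higher and GALNT17 lower, and limma-voom called GALNT17 besides GALNT16. Sample quality weights in limma-voom added GALNT13 to these 2. GALNT16 (ENSG00000100626, chromosome 14, 69259277 to 69357033, plus strand) was at 60.8, 42.9 and 52.5 CPM over controls 1, 2 and 3 and at 30.9, 29.3 and 29.5 CPM over knockdowns 1, 2 and 3. The knockdown values had a coefficient of variation of 2.80% and lay below all controls (log2 fold change -0.80, SE 0.162, 1.74-fold, edgeR adjusted p = 0.0280; 6.69e-04 to 0.0454 without one control and 0.157 to 0.168 without one knockdown library). GALNT16 overlaps annotated transcripts on both strands.

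The GALNT genes with the highest levels did not pass by edgeR. GALNT11, the most abundant at a mean of 27.02 TPM, was at 43.9, 36.9 and 47.6 CPM over controls and 56.2, 58.2 and 57.5 CPM over knockdowns 1, 2 and 3, with no overlap (log2 fold change 0.42, edgeR adjusted p = 0.108). GALNT12 (0.95, edgeR adjusted p = 0.0748, DESeq2 0.0147) and GALNT4 (0.97, edgeR adjusted p = 0.0921, DESeq2 0.0245) had higher knockdown values in every library, but GALNT4 overlaps POC1B and the read-through gene POC1B-GALNT4 on its own strand, which makes its count uncertain. GALNT1 and GALNT2, the broadly expressed starters of O-glycans, had log2 fold changes of -0.24 (95% interval -0.57 to 0.085) and -0.22 (-0.64 to 0.20). GALNT13, a neuronal form, read 7.69, 1.47 and 15.6 CPM over controls 1, 2 and 3 against 3.05, 2.65 and 2.59 CPM over knockdowns 1, 2 and 3, so that control library 2 alone was below the knockdown values (edgeR adjusted p = 0.212). Without that library GALNT13 passed as lower (log2 fold change -2.06, edgeR adjusted p = 0.00378). GALNT9 and GALNT14 showed the opposite arrangement, with 30.4 and 58.98 CPM in control library 2 and at most 10.1 and 30.2 CPM elsewhere. GALNT17 had the most negative value of the family, at 2.46, 1.58 and 2.72 CPM over controls and 0.298, 0.993 and 0.471 CPM over knockdowns 1, 2 and 3 (log2 fold change -1.93, edgeR adjusted p = 0.0898, DESeq2 0.0105, limma-voom 0.0479), and GALNT3 the most positive, at 0.441, 0 and 0 against 0.869, 0.891 and 0.636 CPM. GALNT10, close to GALNT11 in level at 25.8 TPM, had a log2 fold change of -0.24 (95% interval -0.57 to 0.089), GALNT7 of -0.16 (-1.19 to 0.86) and GALNT18 of 0.0049 (-0.54 to 0.55). GALNT5, GALNT6 and GALNT15 averaged under 0.5 TPM.

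The next steps of O-glycan assembly concern C1GALT1, which makes core 1 by adding galactose, and GCNT1, which branches core 1 into core 2. GCNT1 (ENSG00000187210, chromosome 9, 76419850 to 76651203, plus strand) had the largest fall of the called genes. It stood at 7.50, 14.1 and 8.64 CPM over controls 1, 2 and 3 and at 2.68, 2.47 and 2.38 CPM over knockdowns 1, 2 and 3. All knockdown values lay far below the lowest control, and GCNT1 fell by 2.01 on the log2 scale (SE 0.318, 4.02-fold, edgeR adjusted p = 0.0146), from 10.1 ± 3.55 to 2.51 ± 0.154 CPM (SD, n = 3). It was called without any one control library (adjusted p = 0.00294 to 0.0265) and not without any one knockdown library (0.102 to 0.111). The gene overlaps PRUNE2 on the opposite strand. C1GALT1 was at 18.8, 11.8 and 21.5 CPM over controls and 9.06, 8.76 and 8.95 CPM over knockdowns 1, 2 and 3, lower without overlap but not past the threshold by edgeR (log2 fold change -0.96, 95% interval -1.54 to -0.37, edgeR adjusted p = 0.0585; 0.00142 without control library 2). It was called lower by DESeq2 (adjusted p = 0.00371), by limma-voom without weights (0.0478) and with sample or group weights (0.00183 and 0.0484), and by edgeR on genes of at least 5 CPM (0.0487). Of the summed TPM of GCNT1 and C1GALT1, GCNT1 held 36.7, 38.8 and 46.4% over controls 1, 2 and 3 and 16.1, 13.2 and 11.8% over knockdowns 1, 2 and 3. By CPM its shares were 28.5, 54.6 and 28.7% against 22.8, 22.0 and 21.0%, still without overlap but with a smaller gap. The other branching genes were GCNT2, the I-antigen enzyme, at 3.19 TPM with a log2 fold change of -0.20 (95% interval -0.91 to 0.51), and GCNT3 and GCNT4, both under 0.1 TPM on average.

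The B3GALT genes make the alternative, type 1 chains or glycolipid cores, and none of the 4 passed by edgeR or DESeq2, or had an unadjusted p under 0.05. B3GALT6, which builds the linker of proteoglycans, was the most abundant at a mean of 9.75 TPM and stood at 14.6, 26.9 and 19.01 CPM over controls and 22.5, 22.5 and 20.1 CPM over knockdowns 1, 2 and 3 (log2 fold change 0.11, 95% interval -0.44 to 0.66). B3GALT1 was at 8.09, 5.47 and 5.84 against 4.57, 4.71 and 5.37 CPM, lower without overlap (log2 fold change -0.41, 95% interval -1.04 to 0.22). B3GALT5 was even among knockdown libraries at 3.82, 3.74 and 3.98 CPM and uneven among controls at 2.32, 8.25 and 0.247 CPM. B3GALT4, of ganglioside synthesis, did not exceed 1.31 CPM.

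The B3GNT family includes enzymes that extend or start N-acetyllactosamine chains, and of its 6 tested genes B3GNT5 was the 1 that fell. B3GNT5 (ENSG00000176597, chromosome 3, 183253244 to 183298504, plus strand) encodes the synthase of lactotriaosylceramide, the first step of lacto-series glycolipids. It was at 58.4, 27.1 and 38.4 CPM over controls 1, 2 and 3 and at 15.6, 14.5 and 14.8 CPM over knockdowns 1, 2 and 3. The knockdown values were close together and below all controls, which spread 2.15-fold. B3GNT5 fell by 1.47 on the log2 scale (SE 0.274, 2.76-fold, edgeR adjusted p = 0.0230), with an adjusted p of 6.35e-04 to 0.0359 without one control library and of 0.127 to 0.134 without one knockdown library. It overlaps MCF2L2 on the opposite strand. B3GNT2, the main extender of these chains on N-glycans, was at 10.9, 15.5 and 10.2 CPM over controls and 7.67, 9.73 and 6.13 CPM over knockdowns 1, 2 and 3 (log2 fold change -0.64, edgeR adjusted p = 0.190). The other members, B3GNT4, B3GNT6, B3GNT9 and B3GNT10, were under 3 TPM on average.

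To set a gene that fell beside the one that rose, the 250 bases before the RefSeq start of B3GNT5 and of MAN1C1 are given 5′ to 3′ on the gene's strand (GRCh38.p14, both plus strand). The RefSeq start of MAN1C1 lies before the first base of the gene in GENCODE. Capitals mark GGGCGG, the GC box, or CCAAT, on either strand. The windows are chr3:183253003-183253252 and chr1:25616541-25616790.
B3GNT5: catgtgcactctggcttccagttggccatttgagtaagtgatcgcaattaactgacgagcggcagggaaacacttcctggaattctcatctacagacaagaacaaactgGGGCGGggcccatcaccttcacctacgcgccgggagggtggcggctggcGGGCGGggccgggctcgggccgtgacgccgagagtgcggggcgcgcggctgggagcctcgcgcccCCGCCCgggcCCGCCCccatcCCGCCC
MAN1C1: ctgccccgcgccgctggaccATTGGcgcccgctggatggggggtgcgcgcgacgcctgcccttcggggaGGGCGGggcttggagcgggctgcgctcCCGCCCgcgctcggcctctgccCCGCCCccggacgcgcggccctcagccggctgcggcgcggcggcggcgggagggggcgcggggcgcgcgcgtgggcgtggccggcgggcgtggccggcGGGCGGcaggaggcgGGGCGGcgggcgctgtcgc
Both windows held 5 GC boxes, and that of MAN1C1 also held 1 CCAAT box. Windows of other genes that fell held fewer GC boxes, 2 for B4GALT2, 1 for GALNT16 and 0 for GCNT1, so B3GNT5 does not stand for them. GENCODE exons of the gene itself took up 9 bases of the B3GNT5 window, 60 of B4GALT2 and 194 of GALNT16. The GCNT1 window ends at chr9:76393868, well before the GENCODE start at 76419850. In it, 122 bases lay in exons of RFK on the minus strand. No window was found for MGAT4A. The GC content was 68% for B3GNT5 and 86% for MAN1C1. Windows were found for 60 of the 78 genes, and a GC box stood in 63.3% of them against 42.3% of 27305 RefSeq windows of the same length. Those 27305 windows were not limited to genes with counts in these data, so they are not a matched background. For CCAAT the shares were 33.3% and 33.04%, and for the E box CACGTG 8.33% and 6.49%. The TATA box TATAAA had no match in the 60 windows and one in 11.1% of all windows. The ER stress response element, which begins with a CCAAT box, was in none of the 60 and in 0.0806% of all windows. The median GC content was 68.2% in the 60 windows and 58% in all. These matches describe the letters of the windows, and which start these cells use was not measured.

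By edgeR with all libraries and the default filter none of the 6 fucosyltransferase genes passed, and 3 had an unadjusted p under 0.05. DESeq2 called 2 (FUT10 higher, FUT11 lower) and limma-voom 1 (FUT10). On genes of at least 5 CPM, edgeR also called FUT10 and FUT11. Without control library 2, edgeR called FUT4, FUT8, FUT10 and FUT11. Sample quality weights in limma-voom called FUT8 lower. FUT8, which adds the core fucose of N-glycans and was the most abundant at a mean of 31.3 TPM, read 79.9, 49.8 and 79.2 CPM over controls and 49.3, 49.05 and 51.4 CPM over knockdowns 1, 2 and 3. Control library 2 lay within the knockdown values and the other controls above them (log2 fold change -0.48, 95% interval -0.94 to -0.020, edgeR adjusted p = 0.176; -0.67 and 8.25e-04 without that library). FUT10 and FUT11 had values without overlap in opposite directions. FUT10 stood at 4.56, 5.73 and 4.03 CPM over controls and 9.03, 10.8 and 8.41 CPM in knockdown libraries (log2 fold change 0.97, edgeR adjusted p = 0.0567), and FUT11 at 17.7, 21.9 and 20.8 against 13.6, 11.7 and 13.1 CPM (-0.65, adjusted p = 0.0609). FUT4, which makes the Lewis x antigen, was at 8.24, 13.9 and 11.9 against 14.8, 18.1 and 15.996 CPM (adjusted p = 0.215). FUT10 overlaps TTI2 and FUT4 overlaps PIWIL4, each on its own strand, so the counts of FUT10 and FUT4 are less certain. The blood group genes FUT1 and FUT2 were under 0.5 TPM in every library.

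By edgeR no sialyltransferase gene passed in any linkage class. Of 5 alpha-2,3, 5 alpha-2,6 and 3 alpha-2,8 genes, 3, 0 and 1 had an unadjusted p under 0.05, and DESeq2 called 0, 0 and 1 (ST8SIA5). Sample quality weights in limma-voom called ST3GAL3, ST3GAL5 and ST8SIA5. All 5 genes of the alpha-2,3 class had negative log2 fold changes, from -0.81 for ST3GAL5 to -0.31 for ST3GAL2, with a median of -0.60; all 5 stayed negative under every scaling tried, with a median of -0.32 on log2(TPM + 1). ST3GAL4, an enzyme of N-glycan caps, was at 24.2, 39.5 and 36.9 CPM over controls and 22.2, 24.98 and 23.7 CPM over knockdowns 1, 2 and 3 (95% interval -0.99 to -0.018, edgeR adjusted p = 0.178; 0.0452 without control library 1). ST3GAL5, the synthase of ganglioside GM3, had the highest level of the class at a mean of 51.4 TPM. Its 184, 74.5 and 54.2 CPM over controls 1, 2 and 3 and 58.04, 63.9 and 56.7 CPM over knockdowns 1, 2 and 3 differed mainly through control library 1, without which the log2 fold change was -0.15. ST3GAL1, which caps core 1 O-glycans, was at 20.1, 28.5 and 16.05 CPM over controls and 14.6, 12.9 and 15.2 CPM in knockdown libraries (log2 fold change -0.60, 95% interval -1.15 to -0.046), with no overlap. ST3GAL3 showed the low control library 2 seen for MAN2A1, at 32.5, 16.5 and 45.7 against 16.9, 18.6 and 18.6 CPM.

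Of the alpha-2,6 genes ST6GALNAC4 and ST6GALNAC6 had the highest levels, and the alpha-2,8 genes were all low. ST6GAL1, which caps N-glycans in the alpha-2,6 linkage, was at 17.1, 18.5 and 12.4 CPM over controls and 18.6, 19.7 and 18.7 CPM over knockdowns 1, 2 and 3, just without overlap (log2 fold change 0.24, 95% interval -0.21 to 0.70, edgeR adjusted p = 0.490). Of the summed TPM of ST6GAL1 and ST3GAL4, ST6GAL1 held 18.1, 13.7 and 14.4% over controls 1, 2 and 3 and 27.8, 22.9 and 21.03% over knockdowns 1, 2 and 3. By CPM the shares of ST6GAL1 were 41.5, 31.9 and 25.2% against 45.6, 44.1 and 44.1%. The groups did not overlap by CPM either, but control library 1 lay close to the knockdown values. ST6GALNAC4 was the most abundant of the class at a mean of 30.4 TPM and had 30.7, 58.04 and 28.9 CPM in control against 27.1, 27.8 and 24.5 CPM in knockdown libraries (adjusted p = 0.245). ST6GALNAC6 was at 33.2, 34.8 and 27.8 against 38.99, 35.2 and 39.5 CPM (log2 fold change 0.24, 95% interval -0.10 to 0.59), and ST6GAL2 and ST6GALNAC3 averaged under 0.5 TPM. ST8SIA5, ST8SIA1, the synthase of ganglioside GD3, and ST8SIA4, a polysialyltransferase, averaged under 1 TPM each, with log2 fold changes of -1.59, -2.02 and 0.15 and 95% intervals of -2.93 to -0.25, -4.06 to 0.019 and -1.35 to 1.65.

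By edgeR none of the 5 SLC35A genes passed, and 0 had an unadjusted p under 0.05 or a call by DESeq2 or limma-voom. They were grouped by symbol as carriers of sugar nucleotides into the Golgi. SLC35A1 for CMP-sialic acid, SLC35A2 for UDP-galactose and SLC35A3 for UDP-GlcNAc had log2 fold changes of 0.23, -0.17 and -0.027. Their 95% intervals were -0.38 to 0.83, -0.68 to 0.34 and -0.53 to 0.48. SLC35A4 was the most abundant at a mean of 43.6 TPM, and its 131 CPM in control library 2 compared with 65.4 to 88.04 CPM in the other 5 libraries. Its log2 fold change of -0.024 turned to 0.38 without that library (adjusted p = 0.00814). SLC35A5 had the largest difference of the 5, from 19.5, 19.98 and 26.6 CPM in control to 26.5, 30.5 and 27.2 CPM over knockdowns 1, 2 and 3 (log2 fold change 0.35, 95% interval -0.058 to 0.77).

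Other genes of the same routes were read from 3 lists of sugar nucleotide synthesis, Golgi helpers and glycan hydrolases. Of 62 tested genes 5 rose and 3 fell, 12.9% against 8.31% of all genes. Supply of GlcNAc and sialic acid precursors included 2 that fell. UAP1, which makes UDP-GlcNAc, was at 191, 201 and 188 CPM over controls and 119, 125 and 119 CPM over knockdowns 1, 2 and 3 (1.60-fold lower, edgeR adjusted p = 0.0185). GNE, the rate-limiting enzyme of sialic acid synthesis, was at 55.4, 44.0 and 59.3 against 28.98, 30.8 and 29.7 CPM (1.77-fold lower, adjusted p = 0.0229). UAP1L1, a relative of UAP1, rose 2.29-fold from 18.2 ± 4.94 to 41.8 ± 1.61 CPM (adjusted p = 0.0187). For each of these 3 genes the groups did not overlap.

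Among Golgi helpers, SLC35D2, a nucleotide sugar transporter, rose 1.75-fold (edgeR adjusted p = 0.0146) and COG4, a subunit of the tether that keeps glycosylation enzymes in place, fell 1.51-fold (adjusted p = 0.0325), while the other 19 did not pass. C1GALT1C1, the chaperone that C1GALT1 needs, was at 32.7, 46.8 and 18.3 CPM over controls and 25.2, 23.3 and 29.2 CPM over knockdowns 1, 2 and 3 (adjusted p = 0.561). Of 15 glycan hydrolases 3 rose and none fell. ENGASE, the cytosolic enzyme that cleaves free and attached N-glycans within their core, was at 22.03, 26.9 and 11.8 CPM over controls and 56.2, 50.3 and 49.8 CPM over knockdowns 1, 2 and 3 (2.56-fold higher, adjusted p = 0.0300). The other genes that rose were MAN2C1, the cytosolic alpha-mannosidase (1.62-fold, adjusted p = 0.0395), and MAN2B2, a lysosomal one (1.57-fold, adjusted p = 0.0432). As with the Golgi enzymes, the number of edgeR calls in these lists was 0 without any one knockdown library, where 12 to 14 had an unadjusted p under 0.05, and 23 without control library 2.

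The spread of the set between libraries was close to that of all genes. Among the 54 genes with at least 5 CPM in the higher group, the median coefficient of variation was 26.1% over controls and 5.98% over knockdown libraries, against 24.5% and 5.29% for all 12048 genes at that level. Control library 2 was the control farthest from the other 2 for 33 of the 54 genes (61.1%, against 57.4% of all genes). The mean of the knockdown libraries lay within the range of the 3 controls for 25 of the 54 (46.3%, against 48.5%). Genes low in control library 2 relative to the other controls included MAN1A1, GALNT13, GALNT7, MAN2A1 and ST3GAL3, and genes high there included GALNT9, GALNT14, SLC35A4 and ST6GALNAC4.

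**Figure D4:**
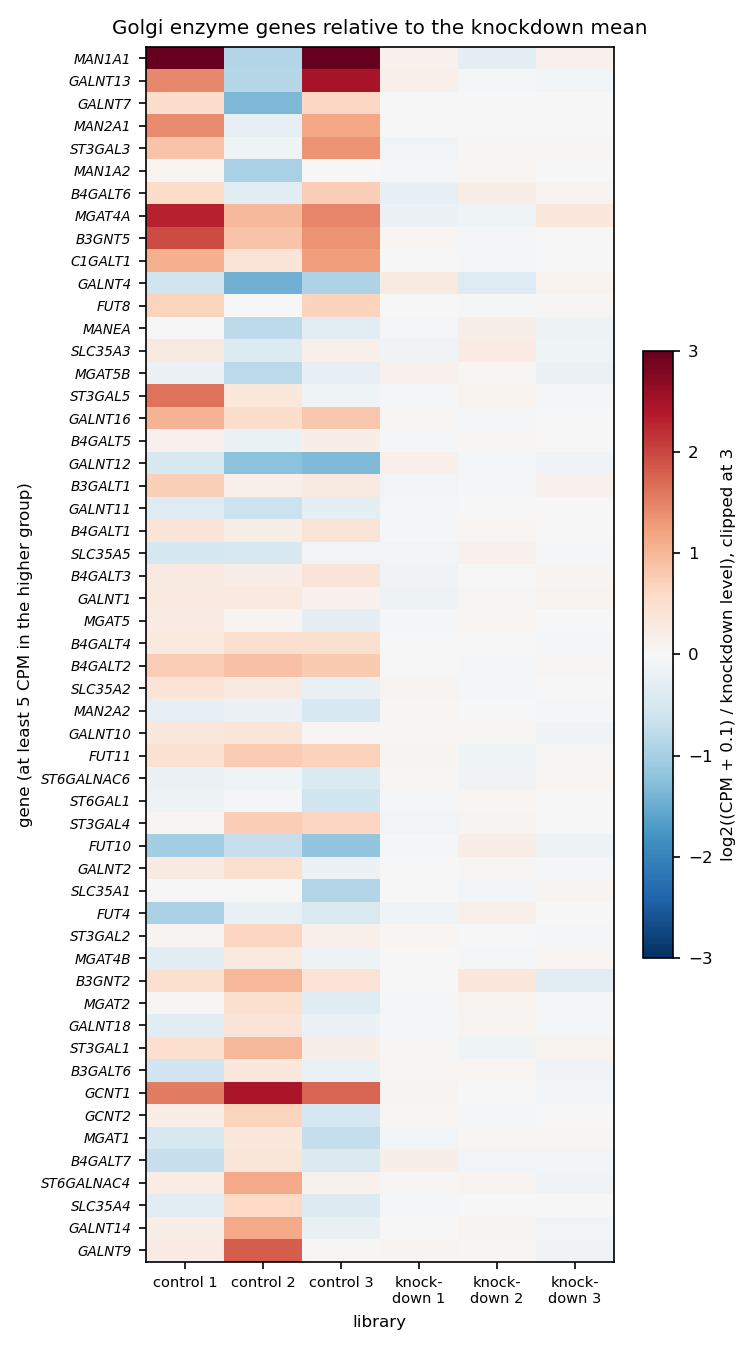
Level of 54 genes with at least 5 CPM in the higher group (rows) in each of the 6 libraries (columns), as log2 of CPM plus 0.1 relative to the mean of the knockdown libraries, clipped at 3; rows run from genes lowest to genes highest in control library 2 relative to the other controls. The 3 knockdown columns are nearly uniform, and control library 2 differs from controls 1 and 3 at both ends of the order, from MAN1A1 to GALNT9.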

How the data were processed

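Bulk RNA-seq was read from 2 tables of the whole series covering 6 libraries, 3 control and 3 GANAB knockdown. The deposited estimated counts, whole numbers per Ensembl gene, hold 21503 genes and none with a total under 15. The deposited TPM hold 60233 genes. Per the submitters' processing notes, fastp, Salmon and DESeq2 and the build GRCh38 were used; no source used here gives their versions, settings, strand or the handling of mouse reads. Columns of the knockdown libraries are headed as knockout in the tables and were matched to the samples by number.

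Counts were filtered with filterByExpr (19430 genes kept, 2073 left out), scaled by TMM and tested with edgeR 4.0.16 (quasi-likelihood, Benjamini-Hochberg adjustment over all genes kept, threshold 0.05) in R 4.3.3, with limma 3.58.1 and DESeq2 1.42.0 as alternatives. CPM are TMM-normalized, and shares within families use TPM. Simulated counts for groups of this size over 19430 genes gave calls for 31% of genes changed 2-fold and 94% of those changed 4-fold. Of 19230 unchanged genes 5 were called. The simulation gave both groups the same spread, whereas the biological coefficient of variation was 52.3% among control and 10.7% among knockdown libraries. These shares therefore check the method and may not hold for the real groups. Intervals are 95%. Gene positions came from GENCODE 29, which held all 78 genes, and promoters from RefSeq (GRCh38.p14). The genes called, the most abundant and the most changed gene of each family, and 10 textbook enzymes were named by rule, as was any call in the related lists; other genes were added to describe their families. The set, though defined by symbol alone, and all lists were chosen with earlier results of these data known.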

Additional observations from a re-analysis of the deposited data

How the results depend on the processing

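With DESeq2 size factors, upper-quartile scaling or no filter on low counts, edgeR called the same number of the set, 1 higher and 5 lower. With at least 5 CPM in 3 libraries and with limma-voom, 1 higher and 7 lower passed, and the higher gene was FUT10. MAN1C1 was left out by the filter at 5 CPM, and limma-voom tested it without a call. DESeq2 called 3660 of all genes, 4 of the set higher and 12 lower, and 13 related genes. Sample quality weights in limma-voom gave 3716 of all genes, 15 of the set lower and 17 related genes. With 1 weight per group, 0 of the set were higher and 6 lower, 7.79% against 8.34% of all genes. These 6 were C1GALT1, B3GNT5, B4GALT2, GCNT1, MGAT4A and GALNT16. Over all genes, the share of calls that were higher was 55.3% in edgeR with TMM. It was 45.8% with sample weights, 44.05% with group weights and 90.7% on log2(TPM + 1). On log2(TPM + 1), 828 of all genes, 1 of the set lower and 2 related genes passed, with a median of the set of 0.074. On log2(TPM + 0.1) these were 526, 1 and 1, with 0 higher, a median of 0.085, and GANAB at -1.26 and not called. Without a filter on TPM they were 68, 0 and 0, with 0 higher, a median of 0.076, and GANAB at -1.25 and not called. TPM rescaled without mitochondrial genes, an alternative chosen after seeing the data, gave 1262 of all genes, 2 of the set lower, 4 related genes and a median of -0.018. The replicate block left 566 of all genes, 0 of the set higher and 2 lower (B3GNT5 and GCNT1), 2 related genes and a median of -0.060; same-numbered libraries correlated at 0.00223, 0.0171 and 0.0218 in their deviations from the group means, each library most with its own number, and the labels do not say that numbers pair the samples. Leaving out each library in turn gave 62 to 5604 of all genes, 0 to 8 of the set higher and 0 to 19 lower, 0 to 23 related genes, and a median of -0.29 to -0.13; the highest counts came without control library 2 and the zeros for lower calls without any knockdown library. For 29 named genes and 19 alternatives, 443 of 545 comparisons kept direction and side of the threshold, 49 lost the call, 31 gained it and 22 reversed. Reversed values were all of genes not called in the edgeR fit: SLC35A4 at 0.047, 0.29 and 0.046 in limma-voom without weights, with sample weights and with group weights, at 0.17, 0.18, 0.17 and 0.073 on log2(TPM + 1), log2(TPM + 0.1), unfiltered and rescaled TPM, and at 0.055 in the block. On the same 4 TPM settings MGAT5 was at 0.24, 0.26, 0.24 and 0.14, and GALNT1 at 0.071, 0.076 and 0.071 on the first 3. Over the fits that left out 1 library each, values that turned sign ranged from -0.12 to 0.38 for B3GALT6, -0.12 to 0.24 for MGAT4B, -0.22 to 0.057 for MGAT5, -0.50 to 0.10 for GCNT2, -0.018 to 0.60 for MGAT1 and -0.25 to 0.38 for SLC35A4. The cause of these changes was not tested. GALNT5 and GCNT3 had at most 13 and 15 counts in any library, and no difference of either was detectable at this depth.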
